A study of Mus musculus with 6 samples.

Results

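The 7 HoxD genes Hoxd4, Hoxd8, Hoxd9, Hoxd10, Hoxd11, Hoxd12 and Hoxd13 were followed in mouse forelimb progenitors at embryonic day 13.5. They were taken by gene symbol, and all 7 were among the 13158 genes of the deposited count table. There were 3 distal and 3 proximal forelimb libraries, numbered 1 to 3 in each region. Cells of both regions came from C57BL/6 embryos labelled wild-type and carried the same 3 alleles: Sox9-CreERT2, a Rosa26-tdTomato reporter and ScxGFP. Sox9-CreERT2 and the tdTomato reporter mark cells in which the Sox9 gene drove Cre. ScxGFP is a reporter of the tendon factor gene Scx. Cells positive for both reporters were sorted from the dissected distal or proximal part of the limb. Sample descriptions tag the proximal libraries WT_DT and the distal ones WT_Ole, and do not spell these tags out. The time of Cre induction, the level of the dissection and the number of embryos behind a library are in none of the sources used here. P-values therefore measure the spread between these libraries only, which may be partly technical.

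Hox genes encode homeodomain transcription factors and are switched on in the order in which they lie along a cluster. In the limb the HoxD cluster is known to be controlled from large regulatory landscapes on either side of it: enhancers beyond its 3′ end act early and in the future arm and forearm, and enhancers beyond its 5′ end act later in the hand plate. Genes in the middle of the cluster can respond to both, and the 5′ genes Hoxd12 and Hoxd13 mainly to the second. A limb library that holds more hand plate or more forearm can therefore differ in its HoxD transcripts, which is background and was not measured here.

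The 7 genes lie on the forward strand of mouse chromosome 2 (RefSeq, GRCm38.p6, the assembly also called mm10). Hoxd13 is at the 5′ end, from 74668225 to 74671603, and Hoxd12 starts 6788 bases further on, at 74675013. Hoxd11 spans 74679558 to 74687016, Hoxd10 74684273 to 74695106, Hoxd9 74697763 to 74700208 and Hoxd8 74704615 to 74707933. Hoxd4 (74721978 to 74729160) starts 53753 bases from the start of Hoxd13, and its span lies inside that of Hoxd3. The annotated spans of Hoxd10 and Hoxd11 overlap. Reads came from the 3′ ends of transcripts, so the last 500 bases of the protein-coding transcripts were searched in the GENCODE M21 annotation: those of Hoxd4 and Hoxd11 also hold an exon of a predicted gene, and those of the other members hold no exon of another gene. Reads in shared stretches cannot be assigned with certainty.

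To show how unlike the starts of HoxD genes can be, the 250 bases before the RefSeq start of 4 members are given here. They run 5′ to 3′ on the forward strand, with CpG dinucleotides in capitals. These 4 are examples, and Hoxd9, Hoxd10 and Hoxd11 lie between Hoxd12 and Hoxd8. The windows are chr2:74667975-74668224 for Hoxd13, chr2:74674763-74675012 for Hoxd12, chr2:74704365-74704614 for Hoxd8 and chr2:74721728-74721977 for Hoxd4.
Hoxd13: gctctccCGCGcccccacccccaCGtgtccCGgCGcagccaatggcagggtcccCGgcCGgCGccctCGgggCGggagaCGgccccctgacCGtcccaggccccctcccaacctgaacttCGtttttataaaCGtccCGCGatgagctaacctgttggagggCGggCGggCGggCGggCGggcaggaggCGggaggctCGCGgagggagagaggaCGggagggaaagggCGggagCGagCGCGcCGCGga
Hoxd12: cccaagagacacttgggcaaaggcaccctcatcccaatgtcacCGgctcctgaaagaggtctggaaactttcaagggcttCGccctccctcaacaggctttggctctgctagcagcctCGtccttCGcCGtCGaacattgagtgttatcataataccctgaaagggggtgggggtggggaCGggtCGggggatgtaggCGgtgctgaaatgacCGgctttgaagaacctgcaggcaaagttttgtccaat
Hoxd8: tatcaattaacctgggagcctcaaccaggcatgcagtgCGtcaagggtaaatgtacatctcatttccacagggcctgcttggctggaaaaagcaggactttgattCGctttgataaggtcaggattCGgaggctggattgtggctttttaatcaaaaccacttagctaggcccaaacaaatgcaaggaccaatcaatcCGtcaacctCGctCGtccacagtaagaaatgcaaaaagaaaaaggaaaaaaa
Hoxd4: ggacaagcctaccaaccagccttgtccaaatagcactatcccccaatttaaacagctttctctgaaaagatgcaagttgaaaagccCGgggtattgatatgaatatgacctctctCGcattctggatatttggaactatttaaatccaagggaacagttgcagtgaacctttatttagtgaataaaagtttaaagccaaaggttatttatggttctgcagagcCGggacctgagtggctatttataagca

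The Hoxd13 window held 31 CpG dinucleotides and a GC share of 74.4%, and 94.8% of the 32851 RefSeq promoter windows of the same length held fewer CpG. The Hoxd12 window held 10, the Hoxd8 window 6 and the Hoxd4 window 3, against a median of 6 over all windows. The Hoxd9 window held 13. Hoxd11 has 2 annotated starts, and their windows held 2 and 20 CpG. The Hoxd10 window, which belongs to a start inside its annotated span, held 20. All 7 members had a window, 8 in all. Both strands of each were searched for 3 motifs. TATAAA, the core of the TATA box, matched in the Hoxd13 window once on each strand, in overlapping positions 126 to 119 bases before the start, and in the Hoxd4 window, 10 to 5 bases before the start on the opposite strand; 12.4% of all windows hold it. TTTATGG, a motif of posterior HOX and CDX factors, matched in the Hoxd4 window alone, 45 to 39 bases before the start, with 2.43% of all windows holding it. TGACAG, the core motif of MEIS and PKNOX factors, matched in none of the 8 windows and in 15.9% of all windows. A match describes these letters and does not show binding.

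Total counts were 1585631 to 2143795 in distal and 1709551 to 2623788 in proximal libraries. Levels are CPM, the count of a gene per 1e6 counts of its library, after TMM scaling in edgeR. A library with 0 counts of a gene leaves room for up to 3, which is 1.14 to 1.89 CPM before scaling. Intervals on counts and shares are exact (Clopper-Pearson) at 95% and hold counting error alone. Transcripts of Sox9 and Scx, the genes that the reporters follow, were detected in all libraries. The reporters themselves were not measured here. Sox9 was at 269 to 365 CPM in distal libraries, against 93.3 to 126 CPM in proximal ones. Scx was at 2416 to 4122 CPM in distal libraries, against 949 to 1643 CPM in proximal ones. Proximal libraries thus had less of both transcripts, while the cells had been sorted on the reporters. Of other cell types, 7 of 10 listed skeletal muscle genes were in the table, and their summed level was 35.7 to 51.8 CPM in distal libraries, against 203 to 576 CPM in proximal ones. All 5 of them that were tested passed towards proximal libraries, as did 2.27% of all genes tested. Myod1 and Myog among them reached the filter's minimum in proximal libraries alone, so this count is a description. The listed genes of macrophages (6 of 6 in the table) summed to 1.26 to 3.46 CPM in distal libraries, against 5.76 to 14.1 CPM in proximal ones. Those of endothelium (5 of 6) summed to 1.48 to 5.01 and 2.68 to 8.83 CPM, of Schwann and neural crest cells (5 of 5) to 7.24 to 7.58 and 6.48 to 20.4 CPM, of surface ectoderm (6 of 8) to 63.5 to 85.1 and 71.6 to 94.97 CPM, and of blood (3 of 8) to 1.26 to 11.9 and 1.10 to 80.2 CPM, in distal and proximal libraries in each case. Krt18 made up most of the surface ectoderm sum in each library, at 46.2 to 75.7 CPM in distal and 58.9 to 72.3 CPM in proximal ones. Fgf8 was at 5.94 to 19.6 and 8.03 to 14.0 CPM. Epcam, Krt5, Krt8 and Krt14 were each at most 4.42 CPM in any library. The part of these cells in the HoxD differences was not tested.

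Transcripts of the HoxD genes from Hoxd9 to Hoxd12 were higher in distal libraries, by 9.72-fold for Hoxd9 and by 32.3-fold to 41.1-fold for Hoxd10, Hoxd11 and Hoxd12. Hoxd4, at the 3′ end, was higher in proximal libraries. Hoxd8 and Hoxd13 did not pass the test. An adjusted p under 0.05 in edgeR's quasi-likelihood test was reached by 1.11% of the 9512 genes tested towards distal and 2.27% towards proximal libraries. Among the 7 HoxD genes, 4 passed towards distal and 1 towards proximal libraries. Each of the 7 reached the filter's minimum in all 3 libraries of only 1 region, the one where it was higher, so these counts describe the members and support nothing further. All distal libraries lay above all proximal ones for 5 members (7.53% of all genes tested) and below them for 1 (8.67% of all genes tested). In bulk RNA, fewer cells that express a gene cannot be told apart from less RNA per cell.

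**Figure D1:**
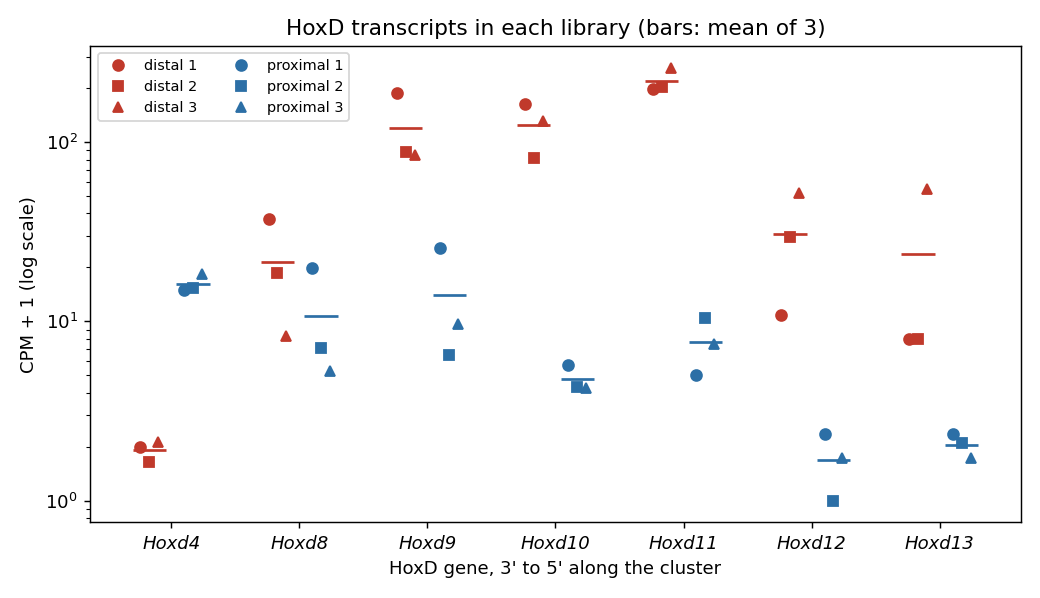
Level of each HoxD gene in each library, as CPM + 1 on a log axis, with genes in cluster order along the x axis, distal libraries in red and proximal ones in blue, and a bar at the mean of 3 libraries. Hoxd4 reaches at most 1.11 CPM in distal libraries, Hoxd8 overlaps between the regions, and Hoxd13 is at 6.93 and 6.95 CPM in distal libraries 1 and 2 and at 54.0 CPM in distal library 3.

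Hoxd4, a 3′ gene known for patterning the vertebrae of the neck, was at 0.990, 0.632 and 1.11 CPM in distal libraries 1 to 3, against 14.1, 14.4 and 17.3 CPM in proximal libraries 1 to 3. The 5 distal counts are near the detection limit, while the proximal libraries are close to each other. The distal mean was 0.912 ± 0.250 CPM and the proximal mean 15.2 ± 1.78 CPM (SD, n = 3 each). On the log2 scale the fitted difference was -3.96 (SE 0.43; edgeR adjusted p = 0.00061). From summed counts, the distal to proximal ratio was 0.0593, with an interval of 0.0188 to 0.143. Hoxd4 was the only one of the 7 that passed towards proximal libraries.

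Its neighbours at the 3′ end of the cluster had few counts. Hoxd3, whose span contains Hoxd4, had 0 counts in all 3 distal libraries, against 5, 5 and 17 in proximal libraries 1 to 3. Set against 3 counts over the distal group, and with the proximal counts taken without error, this is at least 7.98-fold lower in distal libraries. The exact interval of the ratio, which holds the error of both, reaches up to 0.165. Haglr, a long non-coding RNA gene at the same end of the cluster, had 4 distal and 38 proximal counts, a ratio of 0.119 with an interval of 0.0308 to 0.330. Neither passed the filter for edgeR. With DESeq2 both had adjusted p under the threshold, at 0.014 for Hoxd3 and 0.049 for Haglr. Of the flanking genes outside the cluster, 9 were tested. None passed in edgeR (0 also at an unadjusted p under 0.05) or in DESeq2, among them Mtx2, the nearest protein-coding gene beyond the 3′ end, at 74.3 ± 16.0 CPM in distal libraries, against 79.5 ± 12.2 CPM in proximal ones (log2 fold change -0.10), and Atp5g3, on the far side of the 5′ landscape, at 1208 ± 88.8 and 1353 ± 226 CPM in distal and proximal libraries.

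Hoxd8, in the middle of the cluster, was at 36.1, 17.7 and 7.24 CPM in distal libraries 1 to 3, against 18.7, 6.07 and 4.32 CPM in proximal libraries 1 to 3. The regions overlap, since distal library 3 lies below proximal library 1, while in each pair of same-numbered libraries the distal one was higher. Library titles share their numbers across the regions, and no label says whether these mark the same embryos or litters. Its log2 fold change was 1.18 with a 95% interval of -0.25 to 2.61 (SE 0.64; edgeR adjusted p = 0.61). It did not pass without any single library, where the log2 fold change was 0.44 without distal library 1, 1.26 and 1.59 without distal libraries 2 and 3, and 2.00, 0.95 and 0.76 without proximal libraries 1 to 3. It passed with distal library 3 and proximal library 1 left out together, at 2.42 (edgeR adjusted p = 0.0043; 0.0043 to 0.98 over all alternatives). Within each region library 1 had the highest level and library 3 the lowest. Leaving out distal library 3 and proximal library 1 thus removed the lowest distal and the highest proximal level. A larger fold follows from that choice, so the pass there is no support for a difference.

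Hoxd9, which acts with its HoxA paralogue in the upper arm, was at 187, 87.2 and 84.1 CPM in distal libraries 1 to 3, against 24.8, 5.52 and 8.63 CPM in proximal libraries 1 to 3. Library 1 was again the highest of each region, and all distal libraries lay above all proximal ones. The log2 fold change was 3.28 (SE 0.51; edgeR adjusted p = 0.0073). Without proximal library 1 it was 4.02, and no other single library moved the fold by more than 1.5 times.

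Hoxd10 was at 161, 80.3 and 130 CPM in distal libraries 1 to 3, against 4.68, 3.31 and 3.24 CPM in proximal libraries 1 to 3. Its log2 fold change was 5.07 (SE 0.34; edgeR adjusted p = 2.73e-05), and 4.83 to 5.29 with single libraries left out. Hoxd11, which with Hoxa11 is needed for the radius and ulna, was at 196, 201 and 260 CPM in distal libraries 1 to 3, against 4.01, 9.38 and 6.48 CPM in proximal libraries 1 to 3. The highest to lowest ratio of distal libraries, 1.32, was the smallest among the 7 members. Its log2 fold change was 5.01 (SE 0.26; edgeR adjusted p = 5.32e-06).

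Hoxd12, a 5′ gene of the forearm and hand, was at 9.90, 28.4 and 51.3 CPM in distal libraries 1 to 3, against 1.34, 0 and 0.719 CPM in proximal libraries 1 to 3. The proximal values rest on 2, 0 and 2 counts. From summed counts of 157 and 4, the distal to proximal ratio was 44.3 with an interval of 16.9 to 164. The fitted log2 fold change was 5.36 (SE 0.82; edgeR adjusted p = 0.0055), and 4.71 without distal library 3. The 3 distal libraries lay in the reverse order of Hoxd8.

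Hoxd13, the 5′ gene that patterns the digits, was at 6.93, 6.95 and 54.0 CPM in distal libraries 1 to 3, against 1.34, 1.10 and 0.719 CPM in proximal libraries 1 to 3. Distal library 3 was 7.80-fold above distal library 1, and each proximal library had 2 counts. From summed counts of 122 and 6, the distal to proximal ratio was 22.9 with an interval of 10.2 to 63.7. The log2 fold change was 4.42 with a 95% interval of 2.01 to 6.84 before adjustment (SE 1.07; edgeR adjusted p = 0.068). The call turned on single libraries and on the tool, and Hoxd13 passed in 8 of 16 alternatives, with adjusted p of 0.0018 to 0.24. It passed without distal library 1, 2 or 3, at log2 fold changes of 4.87, 4.85 and 2.73, and with DESeq2 (adjusted p = 0.0092; 1.11% of genes passed towards distal libraries). It did not pass without proximal library 1, 2 or 3 (edgeR adjusted p = 0.24, 0.21 and 0.17), with no filter (0.13) or with limma-voom, at 3.47 (0.24). Even in distal libraries 1 and 2, where it was low, Hoxd13 had 14 and 11 counts against 2 in each proximal library.

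**Figure D2:**
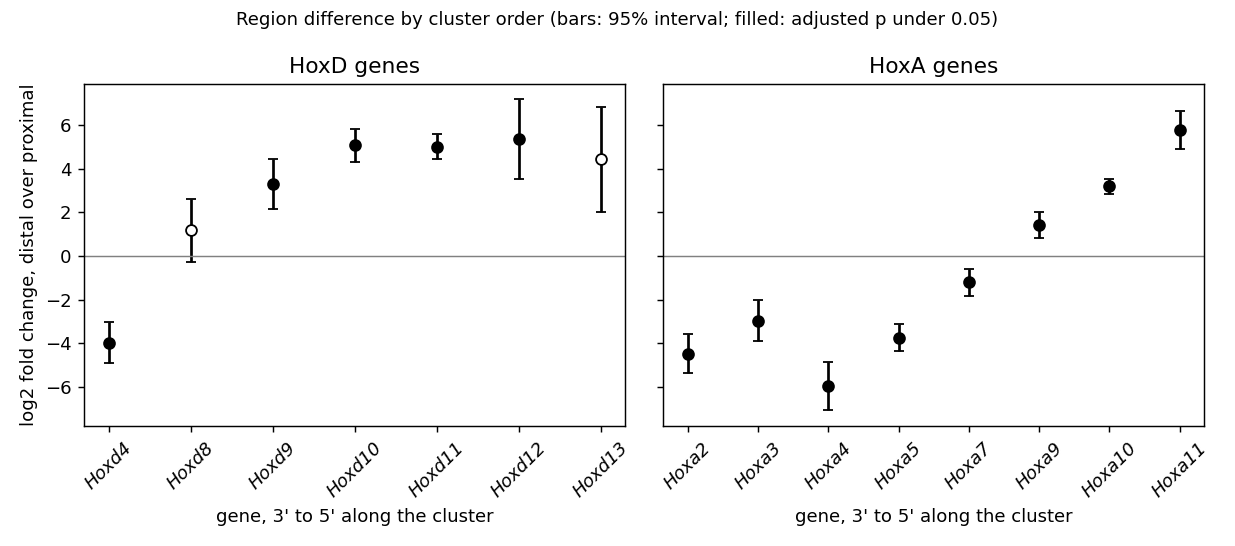
Log2 fold change, distal over proximal, of the HoxD genes (left) and the tested HoxA genes (right) in cluster order, with 95% intervals before adjustment; filled points have an adjusted p under 0.05. HoxD values lie between -3.96 at Hoxd4 and 5.36 at Hoxd12, with Hoxd8 at 1.18 as the only member whose interval spans 0; Hoxa4 had 2 distal counts, so its fitted value depends on the prior count.

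The step from one member to the next was measured as a ratio within each library, which does not depend on how libraries are scaled. The log2 ratio of Hoxd8 to Hoxd4 counts was 4.88, 4.25 and 2.43 in distal libraries 1 to 3, against 0.41, -1.20 and -1.96 in proximal libraries 1 to 3. The mean difference between the regions was 4.77, and 5.48 without distal library 3 and 5.43 without proximal library 1. For Hoxd9 over Hoxd8 the difference was 2.30, and for Hoxd10 over Hoxd9 it was 1.56, or 0.86 without both distal library 3 and proximal library 1. In these 3 pairs all distal ratios lay above all proximal ones, and the two-sided exact permutation p was 0.10 for each, the smallest that 3 against 3 libraries can give (0.20 adjusted over the 6 pairs). In the next 3 pairs the libraries of the regions overlapped. For Hoxd11 over Hoxd10 the difference was 0.14 (exact permutation p = 0.80), for Hoxd12 over Hoxd11 -0.01 (p = 1.0) and for Hoxd13 over Hoxd12 -1.58 (p = 0.30). This last difference is opposite in sign to that of Hoxd10 over Hoxd9 and about as large, and it was -2.02 without distal library 3 (exact permutation p = 0.10, the smallest possible with 2 against 3) and -0.80 without proximal library 2. The sign of the Hoxd11 and Hoxd12 steps changed when single libraries were left out, and 0 or 2 proximal counts stand behind the steps with Hoxd12 and Hoxd13.

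The make-up of the HoxD counts also differed between libraries of one region. Distal libraries 1 to 3 held 1209, 668 and 1054 counts of the 7 genes (598, 422 and 587 CPM), and proximal libraries 1 to 3 held 103, 72 and 115 (68.9, 39.7 and 41.4 CPM). Hoxd12 and Hoxd13 together made up 2.81% of the HoxD counts in distal library 1 (interval 1.96% to 3.91%), 8.38% in distal library 2 (6.39% to 10.7%) and 17.9% in distal library 3 (15.7% to 20.4%). These intervals do not overlap. In proximal libraries 1 to 3 the share was 3.88%, 2.78% and 3.48%, each from 2 to 4 counts and with intervals up to 9.68%. The mean was 9.71% ± 7.65 in distal and 3.38% ± 0.56 in proximal libraries (SD, n = 3 each). With Hoxd4 and Hoxd8 left out of the total, the share was 3.00%, 8.76% and 18.2% in distal libraries 1 to 3, against 7.41%, 5.71% and 7.27% in proximal libraries 1 to 3. Distal library 1 then lay below all proximal ones, but these rest on the same 2 to 4 counts each and were given no interval. The order is therefore uncertain. The share of Hoxd8 and Hoxd9 had the opposite order in distal libraries 1 to 3, at 37.2%, 24.9% and 15.6%, with intervals of 34.5% to 40.0%, 21.6% to 28.3% and 13.4% to 17.9%. In proximal libraries 1 to 3 it was 63.1%, 29.2% and 31.3%.

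**Figure D3:**
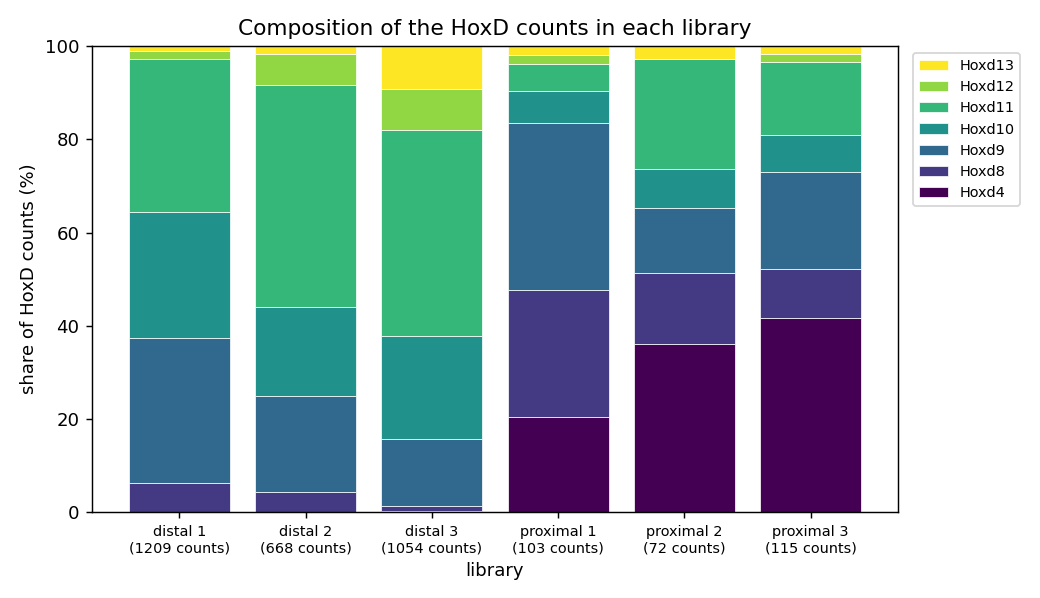
Share of each gene in the counts of the 7 HoxD genes, in percent, for distal (left) and proximal (right) libraries, with the number of counts under each bar. From distal library 1 to 3 the top segments, Hoxd12 and Hoxd13, make up 2.81%, 8.38% and 17.9%, while Hoxd4 makes up at most 0.190% of distal and 20.4% to 41.7% of proximal counts.

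On the log2 scale (prior count 2), the departure of distal library 1 from the distal mean was 1.05 in Hoxd8, 0.74 in Hoxd9 and 0.44 in Hoxd10, and -1.23 in Hoxd12 and -0.93 in Hoxd13. That of distal library 3 was -1.11 in Hoxd8 and -0.40 in Hoxd9, and 1.03 in Hoxd12 and 1.86 in Hoxd13. The curves of these libraries cross between Hoxd10 and Hoxd11. Distal library 2 departed most in Hoxd13, by -0.93, and next in Hoxd10, by -0.56. In the 8 tested HoxA genes the departure of largest size was -0.84, of distal library 1 in Hoxa2. In Hoxa9, Hoxa10 and Hoxa11 departures lay between -0.41 and 0.43. Hoxa13 was listed but had no row in the deposited count table, which holds genes with a summed count of at least 6. The paralogue of Hoxd13 is therefore missing from this view.

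**Figure D4:**
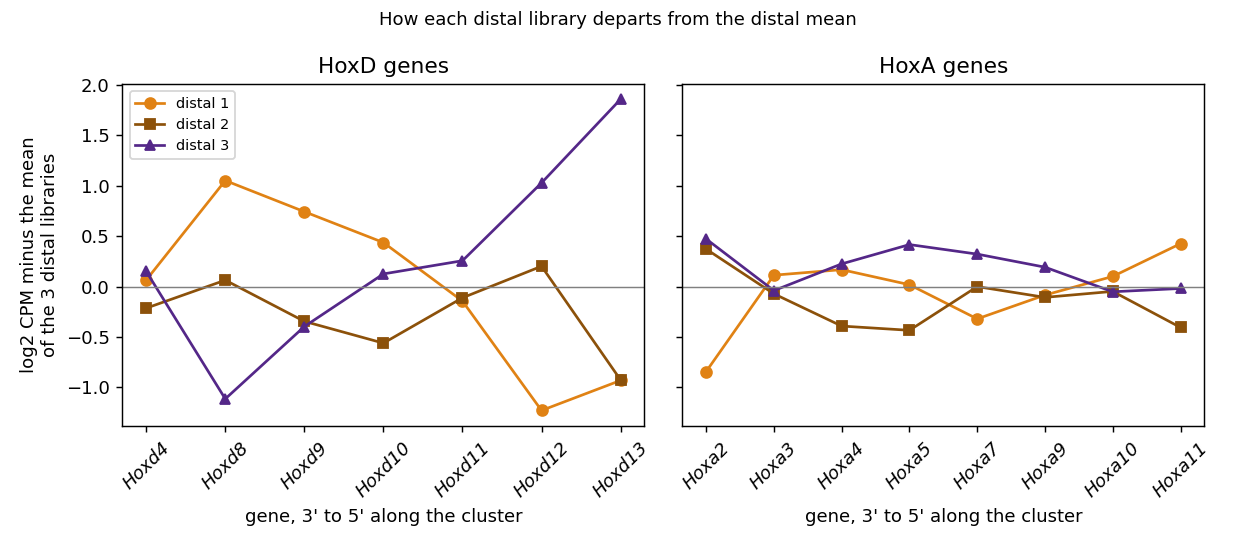
Log2 CPM of each distal library minus the mean of the 3 distal libraries, along the HoxD cluster (left) and the HoxA cluster (right). Distal libraries 1 and 3 cross in the HoxD cluster, at 1.05 and -1.11 in Hoxd8 and at -0.93 and 1.86 in Hoxd13, while in Hoxa9, Hoxa10 and Hoxa11 departures lie between -0.41 and 0.43.

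The spread of the members was set beside that of genes with a like distal level (mean log2 CPM within 0.5). The SD of log2 CPM between distal libraries was 1.61 for Hoxd13, larger than in 99.95% of 2152 such genes. It was 1.14 for Hoxd12 (larger than in 99.8% of 2261) and 1.08 for Hoxd8 (99.5% of 2196). Hoxd9 and Hoxd10, at 0.64 and 0.51, exceeded 97.7% and 94.3% of their like, and Hoxd11, at 0.22, exceeded 63.5%. Between proximal libraries Hoxd8 and Hoxd9 also stood out, with SDs of 0.99 and 1.02 that exceeded those of 97.8% and 99.1% of genes of like proximal level. In edgeR the biological coefficient of variation was 0.63 for Hoxd13, against a trend of 0.25 at its level, 0.50 for Hoxd8 (trend 0.24), 0.44 for Hoxd12 (0.24), 0.39 for Hoxd9 (0.20) and 0.18 for Hoxd11 (0.18). Genes of one level are not independent, and these shares are descriptions.

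**Figure D5:**
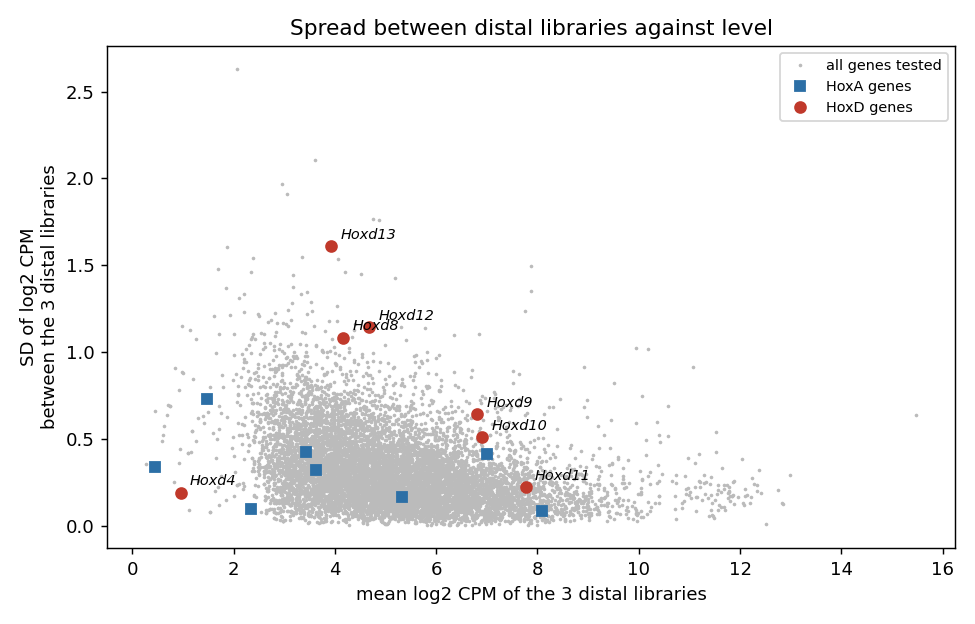
SD of log2 CPM between the 3 distal libraries against their mean log2 CPM, for all genes tested (grey), HoxA genes (blue squares) and HoxD genes (red, named). Hoxd13, Hoxd12 and Hoxd8 sit at 1.61, 1.14 and 1.08, above nearly all genes of like level, and Hoxd11 at 0.22 lies among them.

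Other features moved with these libraries. The share of Rn45s, the 45S pre-ribosomal RNA, was 4.63%, 6.81% and 2.98% of all counts in distal libraries 1 to 3, and 11.7%, 2.94% and 2.20% in proximal libraries 1 to 3. Proximal library 1, with the highest share, also had the highest Hoxd8 and Hoxd9 of its region, and distal library 3, with the lowest distal share, had the lowest of both among distal libraries. The order did not hold throughout: distal library 2, with the highest distal share, had less Hoxd8 and Hoxd9 than distal library 1, and proximal Hoxd9 was lowest in library 2, not in library 3, which had the lowest share. Over all genes tested, the departures of distal library 3 and proximal library 1 from their region means had a correlation of -0.60. With the log2 share of Rn45s as a covariate, an alternative chosen after seeing the data, Hoxd13 passed at 5.34 (edgeR adjusted p = 0.0080) and Hoxd8 did not, at 1.26 (0.18). Skeletal muscle transcripts summed to 43.5, 51.8 and 35.7 CPM in distal libraries 1 to 3. The part of these features in the HoxD spread was not tested, and neither was the level of the dissection.

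Among hand plate and posterior limb genes, 16 of 26 listed were tested. Of these, 4 passed towards distal libraries and none towards proximal ones, against 1.11% and 2.27% of all genes tested. Sall1, below, reached the filter's minimum in distal libraries alone, so this count is a description. The median log2 fold change was 0.26, beside 0.01 for all genes tested and 4.42 for the 7 HoxD genes. Sall1, a zinc finger factor of the distal limb, was at 8.91, 12.0 and 29.0 CPM in distal libraries 1 to 3, against 1.34, 0.552 and 1.08 CPM in proximal libraries 1 to 3. Hand2, which acts upstream of Shh in the posterior limb bud, was at 128, 181 and 245 CPM in distal libraries 1 to 3, against 22.1, 15.5 and 17.6 CPM in proximal libraries 1 to 3. Both had their highest level in distal library 3, the one with most Hoxd13. Cyp26b1, a retinoic acid-degrading enzyme, and Wnt5a, a ligand of limb outgrowth, which also passed, did not, at 65.8, 29.7 and 55.2 CPM and at 113, 161 and 131 CPM in distal libraries 1 to 3. Lhx9 and the receptor gene Epha7, which did not pass, were lowest of the distal libraries in distal library 3, at 11.7 and 18.9 CPM. Bmp2 and Tbx2, which did not pass either, were highest there, at 21.7 and 41.8 CPM. Lhx2, with 77 distal and 2 proximal counts, failed the filter.

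Cofactors such as MEIS proteins bind DNA together with HOX proteins. Of 9 cofactor genes listed, 8 were tested, and Meis1 and Meis2 passed, both towards proximal libraries by -3.11 (SE 0.23; edgeR adjusted p = 6.4e-05) and by -2.84 (SE 0.29; edgeR adjusted p = 0.00044) on the log2 scale. Meis3, at 7.38 ± 2.61 CPM in distal libraries, against 18.4 ± 4.66 CPM in proximal ones, did not pass (edgeR adjusted p = 0.076). Of all genes tested, 1.11% passed towards distal and 2.27% towards proximal libraries. The median of the cofactor list was -0.42.

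In the HoxA cluster, 8 of 11 listed genes were tested, with 3 passing towards distal and 5 towards proximal libraries. The shares of all genes tested were 1.11% and 2.27%. Hoxa2, Hoxa3, Hoxa4 and Hoxa11 reached the filter's minimum only in the region where they were higher, so these counts are descriptions. Set beside the HoxD gene of the same number, Hoxa9 had a log2 fold change of 1.42 (SE 0.26) against 3.28 for Hoxd9, Hoxa10 of 3.20 (SE 0.16) against 5.07 for Hoxd10, and Hoxa11 of 5.77 (SE 0.39) against 5.01 for Hoxd11. Hoxa4 had 2 distal and 169 proximal counts, a ratio of 0.0133 with an interval of 0.0016 to 0.0489, against 0.0593 for Hoxd4. These differences between clusters were not tested.

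The genes most like the HoxD genes over the 6 libraries were ranked by the root mean square difference of log2 CPM after centring each gene on its mean. For the mean profile of Hoxd9, Hoxd10 and Hoxd11 they were Hoxa11 (0.56; Pearson r = 0.99), Hoxa10 (0.61), Hand2 (0.67), Fam101a (0.78) and the joint growth factor gene Gdf5 (0.84). For Hoxd13 they were Sall1 (0.52; Pearson r = 0.95), Hand2 (0.75), the urea transporter gene Slc14a2 (0.75), Gdf5 (0.81) and Fam101a (0.89), so no gene followed Hoxd13 as closely as those below followed Hoxd4. For Hoxd4 they were Pgm5 (0.15; Pearson r above 0.99), Meis1 (0.17), Ackr4 (0.19), the small heat shock gene Hspb1 (0.21) and Steap4 (0.26). All 6 libraries and the region difference are shared by every gene compared, and 59, 16 and 137 of 9230 genes reached a Pearson r of 0.95 with the 3 profiles, so likeness here is a description of these libraries.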

How the data were processed

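RNA of sorted cells was made into bulk MARS-seq libraries, which sequence transcript 3′ ends, per the labels' protocols. Per the submitters' processing notes, the mm10 build and DESeq2, HTSeq and TopHat2 were used, with cutadapt (1.8.3) and bcl2fastq (2.17.1.14); their roles are not stated. Annotation, strand setting and any counting of molecular identifiers are in none of the sources used here. The deposited table holds the authors' raw counts per gene, for genes with a summed count of at least 6. It also holds normalized counts, a signal for which the authors divided the counts of a library by its size factor; it was not used.

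The test was edgeR's (4.0.16, with limma 3.58.1 and R 4.3.3): TMM, filterByExpr (minimum count 10, total 15), which kept 9512 genes, robust glmQLFit and glmQLFTest with region as the only term, and Benjamini-Hochberg adjustment over all genes tested at 0.05. Fold changes are distal over proximal. SE was derived as |log2 fold change| divided by √F. Intervals on them use the fit's degrees of freedom. Neighbour ratios used log2 of counts plus 0.5. Counts of different genes were not ranked against each other. The procedure was tested on simulated data in which all genes had the same biological coefficient of variation. That test does not cover genes as variable as Hoxd8, Hoxd9, Hoxd12 and Hoxd13. Alternatives were other scalings and filters, DESeq2 1.42.0, limma-voom, a replicate block, left-out libraries, Rn45s left out or as a covariate, and a pseudocount of 1. Named genes are the 7 members, HoxA genes and HoxD neighbours, and up to 4 with the smallest p in each list. The 5 most alike for each of 3 profiles were also named. Lhx9, Epha7, Bmp2, Tbx2 and Lhx2 were named after their values were seen. A cofactor gene that the rule names is not reported here. Members and lists were chosen with earlier results of these data known.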

Additional observations from a re-analysis of the deposited data

How the results depend on the processing

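Hoxd4, Hoxd9, Hoxd10, Hoxd11 and Hoxd12 kept their direction and an adjusted p under 0.05 under every alternative run (17 each, 16 for Hoxd12, which like Hoxd13 failed the filter of 10 CPM in 3 libraries). Hoxd13, at 4.42 in the reported fit, passed at 4.46 with library size alone, 4.49 with DESeq2, 2.90 without both distal library 3 and proximal library 1, 5.34 with the Rn45s covariate and 2.73 to 4.87 with a distal library left out; it did not pass at 3.47 with limma-voom. Hoxd8 passed at 2.42 with both those libraries left out, which are its lowest distal and highest proximal ones, so this pass is no support. With 1 library left out Hoxd8 did not pass, at 0.44 to 2.00. The 322 genes past the threshold became 862 with both left out, 516 with the Rn45s covariate, 143 at an adjusted p of 0.01 and 171 to 334 with 1 library left out. The Hoxd11 to Hoxd10 step changed sign to -0.39 with both libraries left out, and was -0.33 to 0.49 with 1 left out. The Hoxd12 to Hoxd11 step changed sign to 0.47 with both left out, and was -1.01 to 0.87 with 1 left out. The Hoxd8 to Hoxd4 step was 4.25 to 5.48 with 1 left out and 6.14 with both, the Hoxd10 to Hoxd9 step 1.13 to 1.94 and 0.86, and the Hoxd13 to Hoxd12 step -2.02 to -0.80 and -2.40. The causes were not tested. The share of Hoxd12 and Hoxd13 in distal libraries averaged 5.60% to 13.2% with 1 left out and 9.98% with Hoxd4 and Hoxd8 out of the total, which raised the proximal shares to 5.71% to 7.41%. With 3 libraries per region no exact permutation p can be below 0.10, and 0 to 2 proximal counts limit the size of the Hoxd12 and Hoxd13 differences.

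Library titles share their numbers across regions, and no label says what a number marks. With the replicate number as a block, 465 genes passed, and Hoxd13 was at 4.50 (adjusted p = 0.0018) and Hoxd8 at 1.07 (0.079). Libraries with the same number had correlations of departures from their region means of 0.35, -0.14 and 0.48. Not every library correlated best with its own number, since distal library 2 did so with proximal library 1. Departures from a mean of 3 libraries are tied to each other, so these correlations cannot decide the pairing. The numbers were not taken as pairs because no label states a pairing, and the block fit shows how far that choice matters.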
